A study of Mus musculus with 12 samples.

Results

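Gene expression in gastrocnemius, a calf muscle made mostly of fast fibres, was compared between old (24 month) and young (10 week) wild-type mice. The comparison rested on 6 of the 12 arrays of the series, 3 for each age, chosen by the age and genotype in their labels, and covered every probe set that names a single gene. The other 6 arrays came from mice of the same ages labelled as knock-outs, in which myogenin-driven cre removes Ppargc1a in muscle. All mice had a mixed C57Bl/6N/6J/129 background. The wild-type mice are described by genotype alone, so whether they were cre-negative littermates is not stated. Nor do the labels give sex or say that each array held the RNA of a separate animal. The p-values are therefore measured against array-to-array spread, some of which may be technical.

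Skeletal muscle loses mass and force in old age. Part of the loss is traced to the contact between motor nerve and fibre, which frays and is partly rebuilt. Fibres that lose their nerve are known to turn genes of the immature fibre back on, among them subunits of the acetylcholine receptor, myogenin and embryonic myosin. Ageing muscle is also known for lower collagen synthesis, altered calcium handling and stress of the protein-folding machinery. PGC-1alpha, the product of Ppargc1a, is a transcriptional coactivator that drives genes of mitochondria and of the slow fibre programme, and the title of the series speaks of its loss with age.

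The values are log2 signals, and each of 18194 genes is given by 1 probe set, the brightest on average. Array medians lay between 6.19 and 6.25. Genes of the fast fibre dominated all 6 wild-type arrays, with a mean of 15.5 over 16 genes at both ages, as the tissue label says. Male-linked Eif2s3y read 10.2 to 10.6 and Xist, the RNA of the inactive X, 4.85 to 5.48 on the 6 arrays. Quality measures moved with age: probe sets for 18S ribosomal RNA averaged 13.8 to 13.9 on young arrays and 11.7 to 12.3 on old ones, and the 5′ minus 3′ signal of Actb was -0.33 to -0.23 on young and -0.14 to -0.11 on old arrays. Their part in the results was not tested. Young array 1 stood apart in B cell markers, with a mean over 17 genes of 7.29 against 6.24 and 6.28 on young arrays 3 and 2, and in 9 MHC class II genes (mean 8.27 against 6.93 and 6.94).

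Old and young muscle differed in 659 of 18194 genes (3.62%) by limma at an adjusted p under 0.05, with 300 genes higher (1.65%) and 359 lower (1.97%) in old muscle. The median size of these differences was 0.61 on the log2 scale, and 126 genes differed by more than 2-fold, 64 of them upwards. In 4774 genes (26.2%) the 3 old values lay all above or all below the 3 young values. The median difference over all genes was 0.002. In 6583 of the 18194 genes both ages averaged under 6.22, the median of all probe sets, where a change may not show. Many of the gene lists below hold few such dim genes. Their shares and the share over all genes are therefore not on equal terms, above all where a list has 1 or 2 calls. Differences compare 3 arrays per age. Values after ± are their standard errors, in which the spread is pooled over all 4 groups, the arrays labelled knock-out included. Without old array 1 labelled knock-out, 1093 genes passed. With any 1 wild-type array left out, fewer genes passed: 346, 276 and 208 without young arrays 1, 2 and 3, and 352, 245 and 284 without old arrays 1, 2 and 3. Of 94 changed genes named here, all but Cilp2, Angptl7, Tph1 and Hmga2-ps1, which were not followed through these fits, 43 passed with each of the 6 arrays left out in turn.

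Sln had the largest rise. It encodes sarcolipin, a small peptide of the sarcoplasmic reticulum that slows the calcium pump and makes it release heat. Young arrays read 7.54, 6.44 and 6.91 and old arrays 9.95, 10.98 and 11.52, so the old values all lay above the young ones and spread over more than 1.5 units. The difference was 3.85 ± 0.71 (14.4-fold, adjusted p = 0.0132). The call was lost without young array 2 or 3 or old array 2 or 3 (adjusted p 0.0554 to 0.0582), and another, dim Sln probe set differed by 0.10.

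Ankrd1, Myh3, Cpne2, Kcnab1 and Rrad were also among the 15 largest rises. Ankrd1, a titin-binding ankyrin repeat protein induced by stretch and denervation, read 8.57, 7.84 and 8.03 in young and 10.37, 10.93 and 10.43 in old muscle. Its difference of 2.43 ± 0.18 (5.39-fold, adjusted p = 4.32e-05) was matched by 2.79 on its other probe set. Embryonic myosin heavy chain, Myh3, read 6.75, 6.48 and 7.0 against 8.68, 8.97 and 9.01 (2.14 ± 0.15, adjusted p = 4.32e-05). The young and old arrays of both genes were separated by more than the range within either age. Cpne2, a copine that binds membranes when calcium is high, read 8.52, 8.30 and 8.24 in young and 11.26, 11.35 and 10.99 in old muscle (2.85 ± 0.21, 7.20-fold, adjusted p = 4.32e-05). Kcnab1, the auxiliary beta subunit of voltage-gated potassium channels, rose by 2.38 ± 0.38 (adjusted p = 0.00574), with 1.81 on its other probe set. Ankrd1, Myh3, Cpne2 and Kcnab1 passed with each wild-type array left out. Rrad, a small GTPase that inhibits voltage-gated calcium channels, read 6.22, 5.82 and 6.18 in young and 9.09, 10.06 and 7.53 in old muscle, at least 7.07-fold (adjusted p = 0.0229). Here and below, "at least" marks a fold whose lower group mean lies under 6.22, the median of all probe sets, where background holds the signal up. The Rrad call was lost without any of the 6 wild-type arrays except old array 3 (adjusted p 0.0584 to 0.0831).

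Krt18, a keratin of simple epithelia that also occurs in stressed muscle fibres, rose at least 7.37-fold, from 6.12, 5.87 and 5.71 to 8.81, 9.27 and 8.28 (adjusted p = 0.00472). Lgals3, galectin-3, a sugar-binding lectin abundant in macrophages, read 7.66, 7.07 and 7.50 in young and 9.48, 10.30 and 10.03 in old muscle (2.53 ± 0.32, adjusted p = 0.00176). Mib1, a ubiquitin ligase that activates Notch ligands, rose on all 3 of its probe sets, by 2.14, 2.26 and 1.54. The amylase gene Amy1 rose by 2.05 ± 0.15 and the mitochondrial carrier gene Ucp3 by 1.85 ± 0.22 (1.85 also on its other probe set). Gadd45a, a growth arrest gene also induced by denervation, rose by 1.79 ± 0.29 (adjusted p = 0.0061). The remaining 3 were Ppp1r14bl (at least 5.42-fold), Mpzl3 (3.77-fold) and Tekt1, a tektin of ciliary microtubules (3.56-fold). All of the genes in this paragraph passed with each wild-type array left out.

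Kera, keratocan, a small leucine-rich proteoglycan that spaces collagen fibrils, had the largest fall: 9.90, 9.31 and 9.48 in young and 6.36, 5.71 and 5.74 in old muscle, at least 12.4-fold lower (adjusted p = 0.00106). Col1a1, the main chain of type I collagen, read 11.70, 11.04 and 11.19 in young against 7.27, 8.43 and 9.49 in old muscle. Its old values were far apart from each other yet all below the young ones, and it fell by 2.91 ± 0.59 (adjusted p = 0.0213), against -2.07 on its other probe set. The Col1a1 call was lost without any of the 6 wild-type arrays except old array 3 (adjusted p 0.0558 to 0.0727). Wif1, a secreted Wnt inhibitor, fell at least 7.03-fold, from 7.18, 6.31 and 6.94 to 3.75, 4.23 and 4.0. Sfrp2, another secreted Wnt antagonist, fell at least 4.0-fold. Pon1, paraoxonase, fell at least 4.22-fold and Ecrg4, which encodes a secreted peptide precursor, at least 3.74-fold. Mettl21e, a muscle protein methyltransferase gene, read 8.84, 8.71 and 8.81 in young and 6.93, 7.04 and 7.0 in old muscle (-1.80 ± 0.15, adjusted p = 0.000122), with little spread at either age. Clec2d, a C-type lectin gene, fell by 1.64 ± 0.26. All of these genes except Col1a1 passed with each wild-type array left out.

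Vapb, a membrane protein of the endoplasmic reticulum, had the smallest adjusted p among the named genes (3.46e-06), with 11.38, 11.38 and 11.42 in young and 9.28, 9.21 and 9.11 in old muscle. It fell by 2.20 ± 0.12 on that probe set alone. The other 2 Vapb probe sets read 9.63 and 9.65 in young and 9.53 and 9.72 in old muscle, differences of -0.10 and 0.07. Of the 792 other probe sets of the 659 changed genes, 603 had the same direction as the one tested, 159 passed in that direction and 1 in the opposite one.

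**Figure D1:**
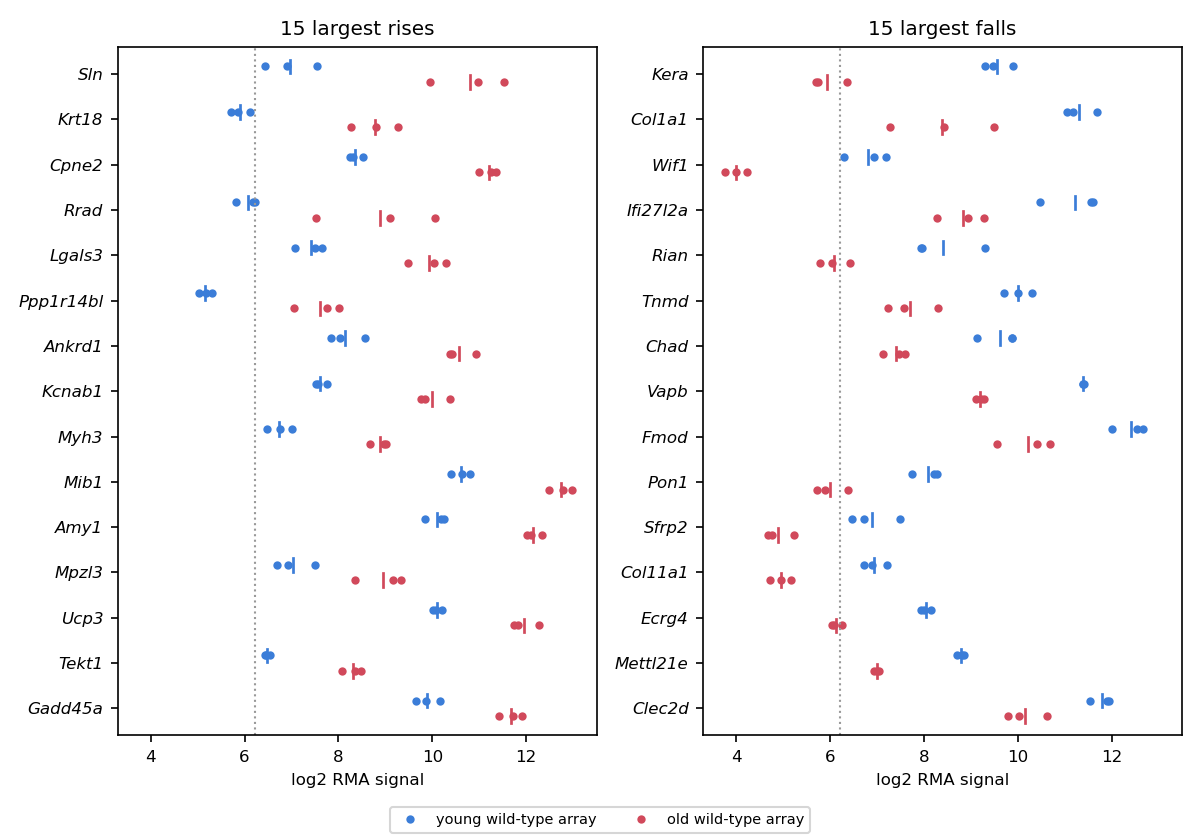
The 15 largest rises (left) and falls (right) between young (blue) and old (red) wild-type muscle. Points are arrays, bars are means of 3 arrays, the horizontal axis is the log2 RMA signal and the dotted line is the median of all probe sets, 6.22. In every gene the old and young points do not overlap, and the means differ most in Sln, which rose by 3.85, and Kera, which fell by 3.63.

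No gene of the fast contractile apparatus passed. Over 16 fast fibre genes the differences ran from -0.20 (Casq1, the calcium store protein) to 0.08 (Mybpc2, a thick filament protein), with a median of 0.00. Myh4, the heavy chain of the fastest fibres, read 15.64 on all 3 young arrays and 15.64, 15.63 and 15.66 on the old ones. The highest value of any probe set was 15.95, so changes in such bright genes may be compressed. Slow fibre genes gave a single call: 13 of 17 were above 0 with a median of 0.28, and Sln passed. Tnni1, slow troponin I, read 11.74, 10.93 and 10.92 in young and 11.88, 11.36 and 12.31 in old muscle, so the ages overlapped, and its difference of 0.65 ± 0.27 did not pass (adjusted p = 0.233). Pln, phospholamban, which brakes the calcium pump in slow fibres, differed by 0.82 ± 0.29 (adjusted p = 0.159), and Atp2a2, the slow pump itself, by 0.36 ± 0.16 (adjusted p = 0.278). Over all genes 3.62% passed, so the 5.88% among slow fibre genes is near that background. This list and the others were chosen with earlier results of these data known. A list's share of calls, here and below, therefore describes its members and does not test them.

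Embryonic and regeneration genes were among those that rose. Of 17 developmental and myogenic genes 6 rose and 1 fell (41.2% called, against 3.62% of all genes), with a median difference of 0.38. Beside Myh3 and Ankrd1, these were Tnnt2, the cardiac and embryonic troponin T (6.55, 6.39 and 6.72 to 7.41, 8.10 and 7.85, difference 1.23 ± 0.17, adjusted p = 0.00309), Myl4, the embryonic light chain (0.79 ± 0.15), Myog and Mymx. Myog, the differentiation factor myogenin, read 8.06, 7.77 and 7.72 in young and 8.96, 8.99 and 8.29 in old muscle (0.90 ± 0.20, adjusted p = 0.0273). Mymx, the small membrane protein that drives fusion of myoblasts, rose at least 3.06-fold from a dim level (4.65, 4.21 and 4.24 to 6.23, 5.65 and 6.06, adjusted p = 0.043). Myf5, the early myogenic factor of satellite cells, fell by 0.75 ± 0.13, from 7.16, 6.89 and 7.18 to 6.38, 6.45 and 6.15 (adjusted p = 0.00966). Perinatal myosin, Myh8, differed by 0.27 and did not pass (adjusted p = 0.309).

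Calls in this group differed in how firmly they held. Myh3, Ankrd1 and Tnnt2 passed without any 1 of the wild-type arrays. Myl4 was lost without young array 2 or 3 or old array 3 (highest adjusted p 0.0685), Myog without young array 2 or 3 or old array 1 or 2 (0.118), Myf5 without young array 3 (0.055) and Mymx without any of the 6 (0.0767 to 0.151). The list held 3 to 8 calls over the 12 fits that each left out an array, with 3 without young array 3.

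Of 15 satellite cell markers 1 passed (6.67%, against 3.62% of all genes). It was Spry1, an inhibitor of growth factor signalling that keeps satellite cells quiescent, which fell from 9.18, 9.28 and 9.19 to 8.77, 8.58 and 8.62 (-0.56 ± 0.08, adjusted p = 0.00317). The median of these markers was -0.29, and 12 of 15 were below 0. Pax7, the defining transcription factor of satellite cells, differed by -0.46 and did not pass (7.16, 6.30 and 6.89 against 6.29, 6.55 and 6.14, adjusted p = 0.334).

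Of 30 genes tied to the neuromuscular junction and to denervation, 8 passed upwards and 0 downwards (26.7%, against 1.65% of all genes that rose). The median of the list was only 0.08, and 13 members were below 0, the lowest at -1.16 without passing. The acetylcholine receptor subunit gene Chrna1 and Musk, the receptor kinase that organises the junction, are shown with the 250 bases before their start sites because both rose and both hold the letters CAGCTG there, an E-box of the kind that myogenic factors bind. The sequences are from RefSeq (GRCm38.p6), in lower case with CAGCTG in capitals, read 5′ to 3′ towards the gene. Chrna1 lies on the minus strand at chr2:73580339-73580588 and Musk on the plus strand at chr4:58285712-58285961.
Chrna1: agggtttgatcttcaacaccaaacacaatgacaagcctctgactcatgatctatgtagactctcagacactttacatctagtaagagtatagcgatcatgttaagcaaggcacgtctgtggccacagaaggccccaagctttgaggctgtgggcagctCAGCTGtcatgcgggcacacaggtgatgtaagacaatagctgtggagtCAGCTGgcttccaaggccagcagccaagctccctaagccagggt
Musk: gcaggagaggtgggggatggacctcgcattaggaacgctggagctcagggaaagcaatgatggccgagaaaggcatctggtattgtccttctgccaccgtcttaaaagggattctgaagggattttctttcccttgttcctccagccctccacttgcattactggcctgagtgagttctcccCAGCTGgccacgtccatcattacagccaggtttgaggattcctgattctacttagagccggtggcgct
CAGCTG starts 92 and 44 bases before the Chrna1 start site and 68 bases before that of Musk. These letters, which read the same on both strands, occur in the same window of 14.7% of 27025 genes. In the junction and denervation list 7 of the 21 genes with a promoter in the table hold them. Besides Chrna1 and Musk these are Chrne, Chrng, Etv5, Hdac9 and Trim63, none of which passed, so a match describes the window and no more.

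Chrna1 read 9.47, 9.22 and 9.39 in young and 10.45, 10.40 and 10.53 in old muscle. The ages were clearly apart, and the difference was 1.10 ± 0.09 (2.14-fold, adjusted p = 0.000122). Musk followed with 7.89, 7.93 and 8.21 against 8.98, 9.10 and 9.19 (1.08 ± 0.19, adjusted p = 0.00966). Chrnb1, the beta subunit, rose by 0.59 ± 0.14 (10.04, 9.82 and 9.95 to 10.43, 10.71 and 10.43, adjusted p = 0.0352). The remaining subunits did not pass, gamma and epsilon, which tell a fetal from an adult receptor, among them. Chrng, the fetal gamma subunit, was dim on all arrays (5.77, 5.27 and 5.55 against 6.10, 6.00 and 6.58, adjusted p = 0.0901), Chrnd differed by 0.25 ± 0.10 (adjusted p = 0.229) and the adult epsilon subunit Chrne by 0.01 ± 0.11 (7.82, 7.77 and 7.85 against 7.84, 7.93 and 7.69).

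Other genes known from denervated muscle rose as well. Hdac4, a histone deacetylase that links denervation to the receptor genes, rose on all 3 probe sets (0.67, 0.68 and 0.54), from 9.04, 8.96 and 9.13 to 9.85, 9.67 and 9.62 on the brightest (adjusted p = 0.02). Gdf5, a bone morphogenetic protein that denervated muscle produces and that limits its wasting, was dim at both ages. It rose at least 1.89-fold, from 5.33, 5.42 and 5.11 to 6.07, 6.51 and 6.01 (adjusted p = 0.00989). Both of its means, 5.28 and 6.20, lay under 6.22. Ampd3, an AMP deaminase induced in atrophying muscle, rose by 1.05 ± 0.27 at the edge of the test (adjusted p = 0.0497). Myf6, the myogenic factor of mature fibres, just missed it (0.74 ± 0.19, adjusted p = 0.0524). Runx1 and Ncam1, which rise strongly after a nerve is cut, differed by -0.06 and -0.18 (adjusted p = 0.853 and 0.435).

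Chrna1, Musk and Gadd45a passed with each wild-type array left out. Gdf5 was lost without young array 3 (adjusted p = 0.0564), Hdac4 without any of the 6 except old array 3 (highest 0.0728), Ampd3 without any of the 6 except old array 3 (highest 0.177) and Chrnb1 without any of the 6 (0.065 to 0.143). Over the 12 fits that each left out an array, 3 to 10 of the 30 genes passed, and 5 rose without young array 1.

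**Figure D2:**
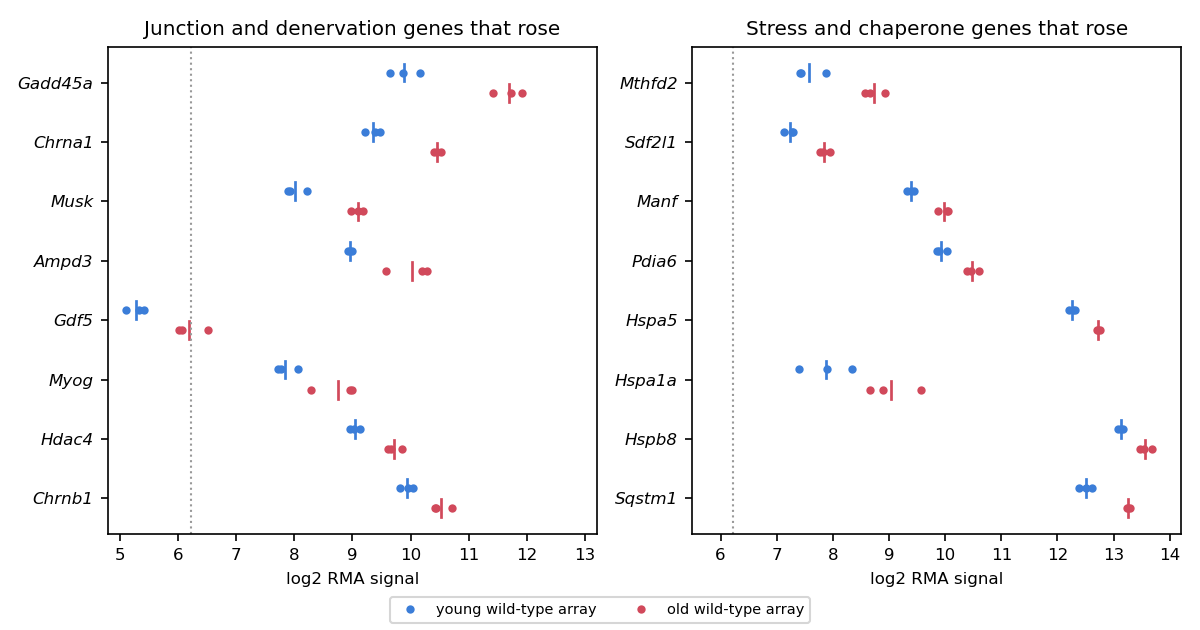
Genes of the junction and denervation list that rose (left) and genes of the stress lists that rose (right), as log2 RMA signal on young (blue) and old (red) wild-type arrays. Points are arrays, bars are means of 3 and the dotted line is 6.22; the old arrays lie above the young ones in every gene shown, by 1.10 in Chrna1 and 1.15 in Mthfd2.

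Of 31 calcium handling and excitation genes 3 rose, Sln among them, and 2 fell (16.1% called, against 3.62% of all genes), with a median of -0.05. Camk2b, a calcium- and calmodulin-dependent kinase, read 10.29, 10.48 and 10.48 in young and 11.27, 11.14 and 11.27 in old muscle (0.81 ± 0.10, adjusted p = 0.00148). Cacng1, the gamma subunit of the voltage sensor, rose by 0.55 ± 0.10 (adjusted p = 0.0113). Stac3, which couples the voltage sensor to calcium release, fell from 12.98, 12.83 and 12.81 to 11.86, 12.30 and 11.97 (-0.83 ± 0.19, adjusted p = 0.0323), and Asph, whose locus also makes junctin, by 0.37 ± 0.08 (adjusted p = 0.0331). Camk2b passed with each wild-type array left out. Cacng1 was lost without young array 3 or old array 2 (highest adjusted p 0.0557), Stac3 without any of the 6 except old array 2 (0.111) and Asph without any of the 6 (0.113). With the mean of its probe sets Asph differed by -0.16 and did not pass (adjusted p = 0.531). The list held 1 to 6 calls over the 12 fits, with 1 without young array 3. Atp2a1, the calcium pump of fast fibres on which sarcolipin acts, differed by -0.08 ± 0.07. Among 32 sarcomere and cytoskeleton genes 27 were above 0 (median 0.18), and Ankrd1 and Dmd, dystrophin (0.43 ± 0.09, adjusted p = 0.0285), rose (6.25%, against 1.65% of all genes that rose). The Dmd call was lost without any of the 6 wild-type arrays (0.0607 to 0.0988) and with the mean of its 4 probe sets (0.294).

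Ppargc1a, the gene named in the title of the series, was measured by 5 probe sets, none of which passed. On the brightest the young arrays read 10.77, 11.17 and 11.18 and the old arrays 12.09, 11.76 and 11.51, so all old values lay above all young ones. The differences on the 5 were 0.75 ± 0.23, 0.44 ± 0.24, 0.44 ± 0.22, 0.48 ± 0.24 and 0.88 ± 0.24 (adjusted p = 0.104, 0.421, 0.36, 0.36 and 0.0657 over 34945 probe sets, of which 1146, or 3.28%, passed). All 5 were upwards, the direction opposite to the loss that the title names. The arrays labelled knock-out were not lower than the wild-type ones: the brightest probe set read 11.14, 11.47 and 12.10 on young and 12.06, 11.84 and 12.33 on old arrays so labelled. Where the probes lie relative to the deleted part is not given in the sources used here. The brightest passed with arrays weighted by quality (0.67, adjusted p = 0.0381) and without labelled young knock-out array 3 (adjusted p = 0.0458). The one with the difference of 0.88 passed in those fits (adjusted p = 0.0207 and 0.0323) and among brighter probe sets alone (0.049).

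No regulator of mitochondrial biogenesis passed (0 of 23, Ppargc1a included, median -0.02). The nearest were Nrip1, a corepressor (0.63 ± 0.16, adjusted p = 0.0521), Polg, the mitochondrial DNA polymerase (-0.41 ± 0.11, adjusted p = 0.063), and Esrrg, an orphan receptor that works with PGC-1alpha (0.78 ± 0.21, adjusted p = 0.0652). Subunits of the respiratory chain did not pass, with medians a little below 0: 0 of 34 for complex I (27 below 0, median -0.11), 0 of 30 for complexes II to IV (23 below 0, median -0.08) and 0 of 16 for ATP synthase (14 below 0, median -0.06). Ndufa1 of complex I read 14.65, 14.67 and 14.65 in young and 14.46, 14.41 and 14.43 in old muscle, apart at each array yet a difference of only -0.22 ± 0.07 (adjusted p = 0.118). Cox8b of complex IV differed by -0.26 ± 0.09 (adjusted p = 0.142) and Atp5e of ATP synthase by -0.26 ± 0.08 (adjusted p = 0.106). Mitochondrial ribosome proteins had a median of -0.06 with 0 of 51 passing.

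Of 25 fatty acid oxidation genes 2 rose and 1 fell (12% called, against 3.62% of all genes). Ucp3 read 10.02, 10.07 and 10.21 in young and 11.74, 11.84 and 12.28 in old muscle. Pdk4, the kinase that shuts glucose carbon out of mitochondria, read 13.30, 13.31 and 13.31 in young and 14.32, 14.46 and 14.50 in old muscle (1.12 ± 0.26, adjusted p = 0.0361). Both rose by more than a full unit with no overlap between ages. Acads, the short-chain acyl-CoA dehydrogenase, fell by 0.44 ± 0.10 (adjusted p = 0.0283). Of 29 glycolysis and glycogen genes 2 fell (6.9%, against 1.97% of all genes that fell): Slc2a4, the insulin-responsive glucose transporter GLUT4, from 13.38, 13.52 and 13.45 to 12.91, 13.07 and 13.15 (-0.41 ± 0.10, adjusted p = 0.0369), and Slc16a3, the lactate exporter MCT4, from 8.82, 9.14 and 9.12 to 8.16, 8.51 and 8.49 (-0.64 ± 0.14, adjusted p = 0.0246). The other Slc2a4 probe set differed by 0.07. Among 21 tricarboxylic acid cycle genes Idh1, an enzyme of the cytosol listed with them, fell by 0.43 ± 0.10, and among 26 lipid synthesis genes Hmgcs1, of cholesterol synthesis, by 0.48 ± 0.08 (adjusted p = 0.00818). These are 4.76% and 3.85% of their lists, against 3.62% of all genes called. Ucp3 and Hmgcs1 passed with each wild-type array left out, although with the mean of its 5 probe sets Hmgcs1 differed by -0.19 and did not pass (adjusted p = 0.209). Pdk4 and Slc2a4 were lost without any of the 6 (highest adjusted p 0.123 and 0.128), Acads and Slc16a3 without any except young array 1 (0.0996 and 0.11) and Idh1 without any except old array 3 (0.172). With the mean of their probe sets Slc2a4 and Idh1 were lost too (0.355 and 0.217).

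Some genes of the responses to misfolded protein rose, with few of the listed members passing. Of 30 genes of the integrated stress and unfolded protein responses 5 rose and 0 fell (16.7%, against 1.65% of all genes that rose), with a median of 0.19 and 22 above 0. Hspa5, the lumenal chaperone BiP, and Pdia6, a disulfide isomerase, are shown with the 250 bases before their start sites because both rose and both hold the endoplasmic reticulum stress element, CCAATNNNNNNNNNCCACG, searched on both strands and given in capitals. Both lie on the plus strand, Hspa5 at chr2:34771840-34772089 and Pdia6 at chr12:17266339-17266588 (RefSeq, GRCm38.p6).
Hspa5: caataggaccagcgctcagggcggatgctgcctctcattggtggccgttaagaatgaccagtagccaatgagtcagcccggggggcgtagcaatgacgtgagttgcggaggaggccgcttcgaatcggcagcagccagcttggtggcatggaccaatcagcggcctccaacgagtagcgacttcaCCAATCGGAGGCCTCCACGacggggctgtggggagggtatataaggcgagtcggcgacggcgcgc
Pdia6: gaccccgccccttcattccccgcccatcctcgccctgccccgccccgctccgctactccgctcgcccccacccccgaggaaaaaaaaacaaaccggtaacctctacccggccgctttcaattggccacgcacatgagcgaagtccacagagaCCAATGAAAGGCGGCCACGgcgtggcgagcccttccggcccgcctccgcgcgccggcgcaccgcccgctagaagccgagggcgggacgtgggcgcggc
The element starts 65 bases before the Hspa5 start site and 98 bases before that of Pdia6. It occurs in this window of 35 of 27025 genes (0.13%) and in 6 of the 29 listed genes with a promoter in the table. The list was written from what is known of this response, which the element helped to define, so that count is not independent of the list. The other 4 holders, Calr, Canx, Creld2 and Hsp90b1, differed by 0.35, 0.22, 0.49 and 0.28 and did not pass.

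Hspa5 read 12.31, 12.21 and 12.27 in young and 12.71, 12.76 and 12.70 in old muscle (0.46 ± 0.10, adjusted p = 0.0296). Pdia6 rose by 0.55 ± 0.10 (10.04, 9.90 and 9.86 to 10.39, 10.60 and 10.46), Manf, a secreted protein of the stressed reticulum, by 0.60 ± 0.12, and Sdf2l1, a cofactor of BiP, by 0.62 ± 0.13. These rises were small and tight, each with all old arrays above all young ones. Mthfd2, the mitochondrial folate enzyme induced by the integrated stress response, rose most, from 7.87, 7.43 and 7.41 to 8.57, 8.94 and 8.66 (1.15 ± 0.17, adjusted p = 0.00365). Atf4, the transcription factor at the centre of that response, differed by -0.30 ± 0.10 (adjusted p = 0.132) and Ddit3, the apoptosis-linked factor CHOP, by -0.13. Mthfd2 passed with each wild-type array left out. Pdia6 was lost without young array 2 or 3 or old array 2 (highest adjusted p 0.0666), Manf without young array 2 or 3 or old array 1 or 2 (0.0698), and Hspa5 and Sdf2l1 without any of the 6 (0.104 and 0.107). A dim Pdia6 probe set differed by -0.16, and with the mean of both its probe sets the call was lost (0.446). The list held 3 calls without young array 1 and 1 to 8 over the 12 fits.

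Among 31 heat shock and chaperone genes 3 rose and 1 fell (12.9% called, against 3.62% of all genes). Hspa1a, inducible Hsp70, rose from 8.34, 7.40 and 7.90 to 8.89, 9.56 and 8.66 (1.16 ± 0.26, adjusted p = 0.0319), Hspb8, a small chaperone of selective autophagy in muscle, by 0.44 ± 0.09 (adjusted p = 0.024), and Hspa5 is counted here too. Hspe1, the mitochondrial cochaperonin, fell by 0.39 ± 0.08 (adjusted p = 0.027). Each of these calls was lost without at least 4 of the 6 wild-type arrays. Of 31 atrophy, autophagy and lysosome genes 2 rose (6.45%, against 1.65% of all genes that rose): Sqstm1, the autophagy receptor p62, from 12.62, 12.50 and 12.39 to 13.24, 13.29 and 13.26 (0.76 ± 0.13, adjusted p = 0.00989, lost without young array 3 at 0.0564), and Ctsz, a lysosomal cathepsin, by 0.54 ± 0.11 (adjusted p = 0.0243, lost without young array 2 or 3 or old array 2 or 3 and with the mean of its probe sets). The atrophy ligases Fbxo32 and Trim63 differed by 0.60 ± 0.33 and 0.43 ± 0.17 and did not pass (adjusted p = 0.41 and 0.236). Proteasome subunits lay slightly higher, 29 of 34 above 0 with a median of 0.11, and 0 passed. In the antioxidant and metallothionein list of 29 genes, Nqo1, a quinone reductase, rose by 0.52 ± 0.12 and Gpx7, a peroxidase of the endoplasmic reticulum, fell by 0.52 ± 0.09 (8.64, 8.56 and 8.62 to 8.13, 8.16 and 7.98, adjusted p = 0.00828). Together they are 6.9% of the list, against 3.62% of all genes called. The Nqo1 call was lost without any of the 6 except old array 2 (highest adjusted p 0.118).

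Markers of tendon and cartilage had the lowest median of the 48 lists: 7 of 16 passed, all downwards (43.8%, against 1.97% of all genes that fell), with a median of -1.0. In whole muscle, fewer cells of a type and less RNA in each of them cannot be told apart, and that holds for each marker list here. Tnmd, tenomodulin, a membrane protein of tendon cells, read 10.30, 9.71 and 10.00 in young and 8.30, 7.24 and 7.57 in old muscle (-2.30 ± 0.38, adjusted p = 0.00747). Chad, the cartilage matrix protein chondroadherin, read 9.13, 9.88 and 9.87 against 7.47, 7.12 and 7.59 (-2.23 ± 0.34). Fmod, fibromodulin, which guides collagen fibril assembly, fell on all 6 probe sets, by 2.19 ± 0.42 on the brightest (12.01, 12.66 and 12.55 to 10.41, 9.56 and 10.68, adjusted p = 0.0169). Col11a1, a minor fibrillar collagen of cartilage, fell at least 4.0-fold. Angptl7 and Cilp2 fell by 1.31 and 1.12. Scx, the transcription factor that defines tendon cells, differed by 0.16 ± 0.13 and did not pass (adjusted p = 0.638), and Cilp, another cartilage matrix gene, by 1.52 upwards without passing. The mean over the 16 markers was 8.46, 8.62 and 8.72 on the young and 7.60, 7.50 and 7.49 on the old arrays. Without young array 1 the count was again 7 falls, and it ran from 4 to 9 over the 12 fits.

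Collagens and other matrix genes gave fewer calls. Of 42 collagens and matrix genes 38 were below 0, with a median of -0.51, and 5 fell (11.9%, against 1.97% of all genes that fell). Sparc, a matrix protein that binds collagen, read 12.80, 12.41 and 12.37 in young and 10.89, 11.10 and 11.07 in old muscle (-1.51 ± 0.24, adjusted p = 0.00574), with -1.59 on another bright probe set. Col4a1, of basement membranes, fell by 1.04 ± 0.26 (adjusted p = 0.0441) and Col12a1, which ties fibrils together, at least 2.58-fold on its brightest probe set alone. Col1a2, the partner chain of Col1a1, differed by -1.96 ± 0.53 (13.66, 13.34 and 13.27 against 10.88, 11.70 and 11.80) and did not pass (adjusted p = 0.0658). Col3a1, type III collagen, overlapped between ages (13.68, 12.52 and 12.49 against 11.06, 12.66 and 12.09). Of 15 matrix proteases and their inhibitors 0 passed. Sparc passed with each wild-type array left out, Fmod was lost without young array 2 or 3 or old array 2 (highest adjusted p 0.0727), and Col4a1 and Col12a1 without any of the 6 (0.138 and 0.156). With the mean of its probe sets Col12a1 differed by -0.32 and did not pass (adjusted p = 0.154). The list held 1 to 7 calls over the 12 fits, with 1 without young array 2 or 3 or old array 2.

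Fibroblast and fibro-adipogenic progenitor markers had a median of -0.34, and 3 of 21 fell (14.3%, against 1.97%). Pdgfrb, a growth factor receptor shared with pericytes, read 10.66, 10.41 and 10.54 in young and 9.66, 9.65 and 9.70 in old muscle (-0.86 ± 0.15, adjusted p = 0.00894). Gsn, gelsolin, which cuts actin filaments, fell by 0.56 ± 0.10 and Pi16, of adventitial fibroblasts, by 1.13 ± 0.28 (adjusted p = 0.0484). Pdgfra, the defining receptor of these progenitors, differed by -0.17 ± 0.23 (adjusted p = 0.794) and Dpt, dermatopontin, by -0.66 ± 0.20 (adjusted p = 0.106). Pdgfrb passed with each wild-type array left out, Gsn was lost without young array 2 or 3 or old array 3 (highest 0.066) and Pi16 without any of the 6 (0.157).

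**Figure D3:**
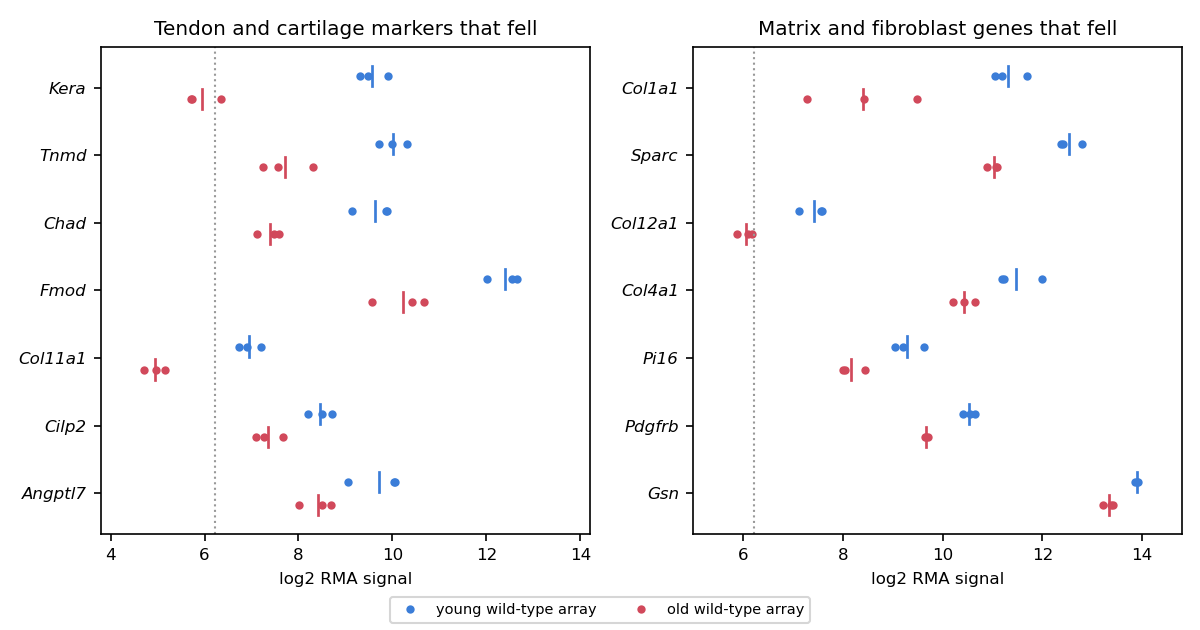
Tendon and cartilage markers (left) and matrix and fibroblast genes (right) that fell, as log2 RMA signal on young (blue) and old (red) wild-type arrays. Points are arrays, bars are means of 3 and the dotted line is 6.22; the old arrays lie below the young ones in every gene shown, and the spread between old arrays is widest in Col1a1 (7.27 to 9.49).

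Vessel markers gave a few calls. Of 24 endothelial markers 21 were below 0 (median -0.24) and 2 fell (8.33%, against 1.97% of all genes that fell): Cdh5, the adhesion molecule of endothelial junctions, from 9.29, 8.90 and 9.07 to 8.39, 8.20 and 8.38 (-0.76 ± 0.13, adjusted p = 0.0075), and Tie1, an endothelial receptor (-0.59 ± 0.15, adjusted p = 0.049). Pecam1 differed by -0.23 and did not pass (adjusted p = 0.474). Of 15 pericyte and smooth muscle markers 2 rose and 1, Pdgfrb, fell (20% called, against 3.62% of all genes). Smooth muscle actin, Acta2, and Tagln, an actin-binding protein of smooth muscle, rose by 0.63 ± 0.15 and 0.60 ± 0.14 (adjusted p = 0.0412 and 0.0345). Cdh5 passed with each wild-type array left out, Tie1 was lost without any of the 6 (highest 0.173), and Acta2 and Tagln without any except young array 1 (0.158 and 0.145). With the mean of its 3 probe sets Acta2 differed by 0.23 and did not pass (adjusted p = 0.206).

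Markers of immune cells gave few calls. Of 30 macrophage markers Lgals3 alone passed (3.33%, against 3.62% of all genes), upwards, and the median was 0.04. Csf1r, Adgre1 and C1qa, which define macrophages, differed by -0.21, -0.19 and -0.07, and Cd68, a lysosomal protein of macrophages, by 1.08 ± 0.41 (6.23, 6.04 and 5.96 against 6.72, 8.04 and 6.69, adjusted p = 0.193). Ighm, the heavy chain of immunoglobulin M, rose from 10.67, 10.61 and 10.72 to 12.28, 12.40 and 12.12 (1.59 ± 0.39, adjusted p = 0.0415), the 1 call among 17 B and plasma cell markers (5.88%, against 3.62% of all genes). The call was lost without any of the 6 wild-type arrays (0.102 to 0.137), although the young and old arrays were far apart. These values are from the brightest of 11 Ighm probe sets. Over 22 settings of the fit the difference ran from 0.67 to 1.67, and it passed in 11. The spread of this gene was 0.06 and 0.14 (SD, n = 3) on the young and old wild-type arrays and 0.28 and 1.10 on those labelled knock-out, and the fit shares it. Jchain, which joins immunoglobulin M units, was high on old array 1 (6.46, 5.17 and 5.36 against 8.74, 6.87 and 5.49, adjusted p = 0.304), and Cd79a of B cells differed by -0.06. In T and NK cells (20 genes), neutrophils (10), MHC class I (12), MHC class II (9) and complement (17) 0 passed. Both ages averaged under 6.22, where a change may not show, in 15, 6, 2, 3 and 4 of these genes. The same held for 9 of the 17 B and plasma cell markers. The 17 adipocyte markers had a median of -0.40 with 0 passing. Adipoq, adiponectin, read 10.62, 11.57 and 11.57 in young and 9.38, 8.89 and 10.28 in old muscle (adjusted p = 0.285). Of 14 Schwann cell genes 0 passed, and of 8 red blood cell genes 1 passed (12.5%, against 3.62% of all genes). It was Alas2, of haem synthesis, which rose by 1.08 ± 0.26 (adjusted p = 0.0397, lost without any of the 6 wild-type arrays).

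Of 37 interferon response genes 3 rose and 4 fell (18.9% called, against 3.62% of all genes), with a median of -0.15. Ifi27, a mitochondrial protein induced by type I interferon, rose tightly from 9.93, 9.67 and 9.88 to 10.57, 10.58 and 10.53 (0.73 ± 0.10, adjusted p = 0.00227). Ifi27l2a, of the same family, fell from 10.48, 11.60 and 11.57 to 8.27, 8.95 and 9.28 (-2.38 ± 0.58, adjusted p = 0.0426), a call lost without any of the 6 wild-type arrays (0.0521 to 0.16). Gbp6 and Gbp7, interferon-induced GTPases, moved apart: Gbp6 read 9.22, 9.0 and 9.13 in young and 10.49, 10.62 and 10.06 in old muscle (1.27 ± 0.21, adjusted p = 0.00668), Gbp7 10.01, 9.25 and 9.42 against 8.04, 8.56 and 7.98 (-1.37 ± 0.21, adjusted p = 0.00476). Both belong to a family with closely similar members, so their probe sets may share signal. Of 35 chemokine and inflammatory genes 1 rose and 1 fell (5.71% called, against 3.62% of all genes). These were the chemokines Cxcl10 and Cxcl9, both ligands of a receptor of activated T cells, with Cxcl10 at least 2.61-fold higher from a dim level (5.39, 5.21 and 5.18 to 6.84, 6.95 and 6.13, adjusted p = 0.024) and Cxcl9 at least 1.83-fold lower (adjusted p = 0.0342). Ifi27, Gbp6 and Gbp7 passed with each wild-type array left out. Cxcl10 was lost without any of the 6 except old array 3 (highest adjusted p 0.0978). Cxcl9 was lost without any of the 6 (0.134) and with the mean of its probe sets (0.0961). The list held 3 to 7 calls over the 12 fits, and 2 rose and 1 fell without young array 1.

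Of 30 growth signalling genes 2 fell (6.67%, against 1.97% of all genes that fell). Acvr2b, the activin receptor through which myostatin restrains muscle mass, read 8.90, 9.08 and 9.04 in young and 7.75, 7.93 and 7.77 in old muscle (-1.19 ± 0.09, 2.28-fold, adjusted p = 4.32e-05). No old array reached the young ones, and the call held with each wild-type array left out. These values are from the brightest of 3 Acvr2b probe sets. Over 22 settings of the fit the difference ran from -1.24 to -0.56, and it passed in each. Irs1, the docking protein of the insulin and IGF receptors, fell from 13.08, 12.76 and 12.81 to 12.16, 12.25 and 11.55 (-0.89 ± 0.19, adjusted p = 0.0227, lost without any young array or old array 3, highest 0.0791). Grb10, an inhibitor of the same receptors, differed by -0.72 ± 0.19 (adjusted p = 0.0571) and Igf1 by -0.77 ± 0.32 (adjusted p = 0.238). Of 17 myokine genes 2 fell (11.8%, against 1.97% of all genes that fell). Fndc5, the precursor of irisin and a target of PGC-1alpha, fell from 10.06, 10.19 and 10.37 to 9.39, 9.26 and 9.59 (-0.79 ± 0.17, adjusted p = 0.0257, lost without young array 2 or 3 or old array 1 or 2, highest 0.117), beside Sparc.

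In the senescence and p53 list 2 of 23 rose and 2 fell (17.4% called, against 3.62% of all genes). Eda2r, a p53-induced receptor of the tumour necrosis factor family, rose from 9.51, 9.15 and 9.31 to 10.93, 10.70 and 10.63 (1.43 ± 0.27, 2.69-fold, adjusted p = 0.0159), beside Gadd45a. Lmnb1, the nuclear lamin that senescent cells lose, fell from 8.16, 8.70 and 8.43 to 7.30, 7.44 and 7.83 (-0.90 ± 0.19, adjusted p = 0.0227). Cdkn1b, the cell cycle inhibitor p27, fell from 11.55, 11.40 and 11.51 to 10.86, 10.79 and 10.56 (-0.75 ± 0.11, adjusted p = 0.00505). Cdkn2a, the best-known senescence marker, read 4.29 to 4.93 on the 6 arrays and differed by -0.18 (adjusted p = 0.578), and Cdkn1a, p21, by 0.50 ± 0.29 (adjusted p = 0.444). Of 34 cell cycle genes 1 passed (2.94%, against 3.62% of all genes). Pcna, the sliding clamp of DNA replication and repair, rose (10.66, 10.51 and 10.58 to 11.14, 11.12 and 11.09, adjusted p = 0.0048). Cdkn1b and Pcna passed with each wild-type array left out, while Eda2r and Lmnb1 were lost without young array 2 or 3 or old array 1 or 2 (highest 0.0652 and 0.0864).

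Clock genes depend on the hour of sampling, which the labels do not give. Of 22 measured, 2 fell (9.09%, against 1.97% of all genes that fell): Nr1d1, the repressor REV-ERBalpha, from 9.48, 9.48 and 9.62 to 8.76, 8.96 and 8.65 (-0.73 ± 0.14, adjusted p = 0.0183), and Csnk1e, a kinase of the clock, by 0.47 ± 0.11 (adjusted p = 0.0319). Next in order were Cry2 (0.76 ± 0.21, adjusted p = 0.0751), Per2 (1.0 ± 0.30, adjusted p = 0.0949) and Bhlhe40 (-0.53 ± 0.16, adjusted p = 0.102), each with no overlap between ages. The core activators Arntl and Clock differed by 0.15 and -0.33 and the output gene Dbp by -0.18. These and the remaining clock genes had adjusted p-values of 0.321 (Clock) or more. Nr1d1 was lost without young array 2 or 3 or old array 1 or 3 (highest 0.0867) and Csnk1e without any of the 6 except young array 1 (0.141). Further lists without a call were cytosolic ribosome proteins (0 of 36, median 0.05), polyamine and creatine genes (0 of 16, median 0.04) and sex-linked genes (0 of 4, median -0.16). Of 22 genes of mitochondrial dynamics and quality control 1 fell (4.55%, against 1.97% of all genes that fell), Hspe1 again.

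**Figure D4:**
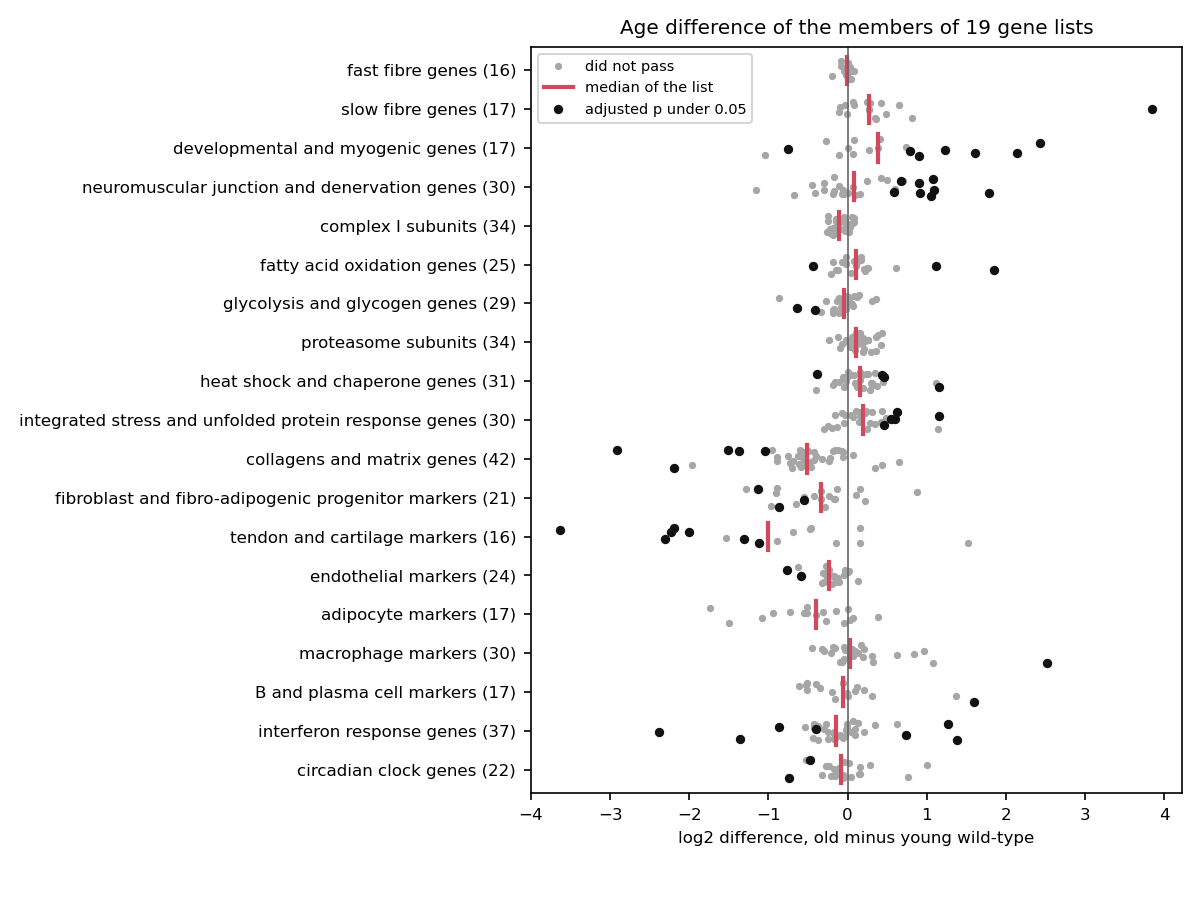
Log2 differences, old minus young wild-type muscle, of the members of 19 gene lists, with the number of measured genes in brackets. Black points passed at an adjusted p under 0.05, grey points did not, and red bars are list medians; the medians run from -1.0 for tendon and cartilage markers to 0.38 for developmental and myogenic genes.

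The arrays labelled knock-out offer the same ages in other mice and share no array with the wild-type comparison, although the estimate of the spread is common to both. Of the 659 genes that changed in wild-type muscle, 651 (98.8%) had the same direction there, against 67.5% of all 18194 genes. Quality measures moved with age in the arrays labelled knock-out as they did in the wild-type ones. Every old array so labelled read lower for 18S ribosomal RNA than every young one, and higher in the 5′ minus 3′ signal of Actb. The part of this shared shift in the common direction of the genes was not tested. In the labelled knock-out arrays 1868 genes passed (10.3%), and 479 genes passed in both in the same direction, which is 72.7% of the wild-type and 25.6% of the knock-out calls. Sln differed by 3.73, Ankrd1 by 2.84, Myh3 by 2.15, Kera by -4.01, Col1a1 by -4.09, Vapb by -2.08 and Chrna1 by 0.78 in these arrays, and each passed. All but Ifi27l2a of the 30 largest wild-type changes passed there in the same direction. The tendon list held 11 falls there with a median of -1.15, and the stress response list 10 rises and 1 fall. Other lists were less alike. The junction and denervation list held 6 rises and 3 falls there. The developmental and myogenic list held 5 rises and 1 fall, with a median of 0.069 against 0.38 in wild-type muscle. The adipocyte median was 0.615 there against -0.40, with 0 passing in either.

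No gene passed the test of a difference between the age effects of the genotypes: 0 of 18194 passed by limma, 992 had an unadjusted p under 0.05 and the smallest adjusted p was 0.235. Tph1, tryptophan hydroxylase, and Hmga2-ps1, a pseudogene, passed upwards in wild-type (0.51 and 0.80) and downwards in labelled knock-out muscle (-0.55 and -0.50). Ifi27l2a fell by 2.38 in wild-type muscle and differed by 0.25 in the arrays labelled knock-out. Gdf5 and Mymx, which rose in wild-type muscle, differed there by 0.22 and 0.15 and did not pass, and Cd68 rose there by 2.87 against 1.08 in wild-type muscle. For none of these was the difference between genotypes past the threshold. Beside Tph1, Hmga2-ps1 and Frzb, the smallest interaction p-values belonged to Trim14, Bcl2, Prkcd, Nkain2, Prkg2, Eif2s3y and a probe set at the Mir133b precursor.

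**Figure D5:**
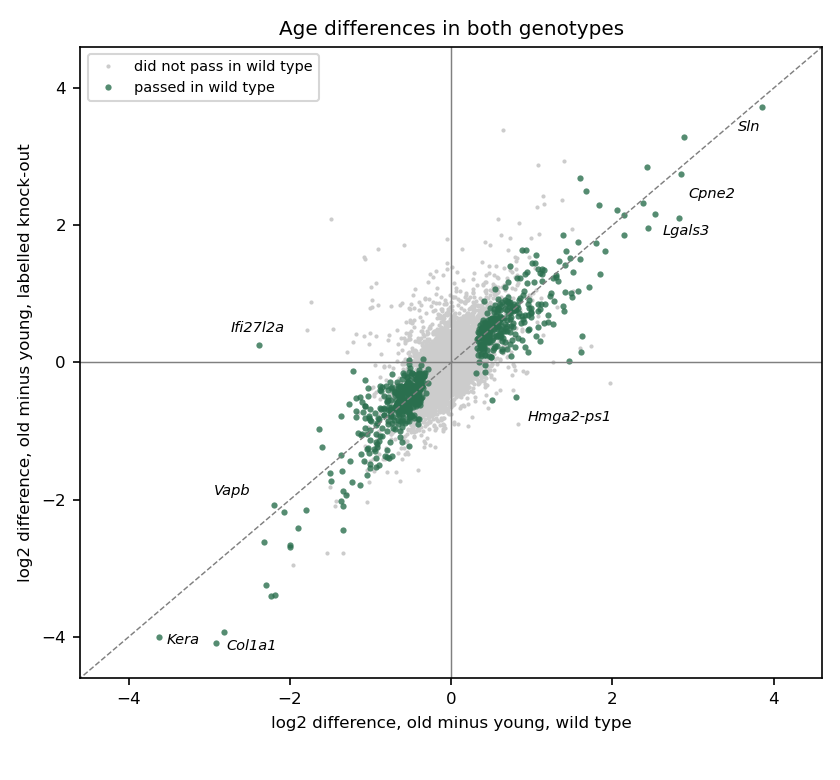
Log2 difference of old minus young in wild-type muscle (horizontal) against the same in arrays labelled knock-out (vertical), 1 point per gene. Green points are the 659 genes that passed in wild-type muscle, the dashed line marks equal differences, and 651 green points lie in the quadrants of the same sign; Ifi27l2a and Hmga2-ps1 are among the 8 that do not.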

How the data were processed

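Total RNA of gastrocnemius muscle was hybridised to Affymetrix mouse arrays of 45101 probe sets. The authors deposited log2 signals, made by RMA in affy per the submitters' processing notes with no version given, and no further normalization was applied. Background compresses differences between dim probe sets, and 3 arrays per group limit precision. One gene is named by 34958 probe sets, several by 932 and none by 9211, and 34754 match the RefSeq table (GRCm38.p6). The 64 control probe sets were left out.

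Each of 18194 genes was represented by its brightest probe set over the 12 arrays. A model of 4 group means was fitted to all 12 arrays with limma (3.58.1, R 4.3.3), leaving 8 residual and 4.15 prior degrees of freedom. Benjamini-Hochberg adjustment ran over all genes, at a threshold of 0.05. Ppargc1a was tested among 34945 probe sets. Replicate numbers follow accession order and pair no arrays.

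The rule for naming genes took, from those that passed without overlap and reached 6.22, the median of all probe sets, in the higher group (623 genes), the 15 that rose most and the 15 that fell most. It added Ppargc1a, clock and sex-linked genes, up to 5 members of smallest p in each described list, and the 10 smallest interaction p-values. Well-known genes that did not pass, and the acetylcholine receptor, Wnt antagonist, guanylate-binding and Dlk1-Dio3 genes, were named after their values were seen. The members and the 48 lists were chosen with earlier results of these data known.

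On simulated data for this comparison, 40.3%, 91.0% and 100% of shifts of 0.5, 1 and 2 log2 were recovered (67, 67 and 66 of 18194 genes), with 6 false among 160 calls. Alternatives changed the choice of probe set, the brightness filter, the normalization (centring or quantile), the variance model, the weighting of arrays, the arrays fitted and the threshold (0.10), or left out single arrays. Leaving out young wild-type array 1 and old knock-out array 1 together was an addition made after seeing the data. Promoters were searched with Python 3.11.15.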

Additional observations from a re-analysis of the deposited data

Results flagged for a closer look

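Beyond the gene tests, 10092 probe sets carry no gene name or more than 1. Of these, 96 passed between old and young wild-type muscle (0.951%), 46 higher and 50 lower in old muscle.

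The control probe sets for 18S ribosomal RNA, which enter no comparison of genes, differed by -1.733 between old and young wild-type arrays. Their part in the gene results was not tested.

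Eif2s3y, a Y-linked translation factor gene, differed by -0.2187 in wild-type muscle, with every old array below every young one, and by 0.46 in the arrays labelled knock-out, with every old array above. The interaction gave an adjusted p of 0.871, so the difference between genotypes did not pass.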

How the results depend on the processing

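The 659 genes that passed in wild-type muscle became 2452 with arrays weighted by quality and 1112 at an adjusted p of 0.10. They ranged from 208 (without young wild-type array 3) to 1093 (without old array 1 labelled knock-out) when single arrays were left out. Every other alternative kept the count within 1.5 times, between 539 and 947. In the arrays labelled knock-out the 1868 became 617 with only the arrays compared, 2946 at 0.10 and 833 to 1997 without single arrays. The interaction count of 0 ranged from 0 to 37 without single arrays, the 37 without labelled knock-out old array 3, and 1 gene passed without wild-type old array 2. Ppargc1a differed by 0.6697 with array weights and by 0.5936 to 0.8867 without single arrays. Of the 94 named genes that passed, 42 did so under every alternative and 51 were lost without at least 1 wild-type array. Signs turned only in genes that did not pass. When the probe sets of a gene were averaged these were Nr1d2 (0.0664), Tef (-0.162), Rora (0.0513), Csnk1d (-0.1485), Eif2s3y (0.0109) and Xist (0.0123). With array weights they were Csnk1d (-0.0456) and Chrne (-0.0144), and without young wild-type array 1 and old knock-out array 1 together Csnk1d (-0.0057). Without single arrays the range was -0.0206 to 0.2895 for Arntl, -0.1186 to 0.0283 for Rora, -0.039 to 0.0731 for Csnk1d, -0.3485 to 0.1051 for Ciart, -0.207 to 0.0548 for Xist and -0.0462 to 0.0762 for Chrne. The cause of these shifts was not tested. No paired analysis was possible because the replicate numbers follow accession order and tie no arrays together. Dim probe sets limit what can be read: where both ages lie under 6.22, a change in amount may not show.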

Other observations

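The gene groups in these paragraphs were chosen after their values were seen, so their values are descriptions. Secreted antagonists of Wnt signalling, proteins that bind Wnt ligands or their coreceptors outside the cell, were measured by 10 genes, of which 3 fell and 1 rose in old wild-type muscle. Beside Wif1 and Sfrp2, Frzb fell from 7.99, 8.07 and 8.21 to 6.57, 6.66 and 7.03 (-1.34 ± 0.17, adjusted p = 0.00169). Dkk3, a distant member of the Dickkopf family, rose from 6.84, 6.88 and 6.92 to 8.37, 7.46 and 8.79 (1.33 ± 0.25, adjusted p = 0.0155). The other 6 differed by -0.54 to 0.45 and did not pass. In the arrays labelled knock-out Frzb differed by -2.45 and Dkk3 by 1.19, and both passed. The Frzb call held with each wild-type array left out, and that of Dkk3 was lost without young array 2 or 3 or old array 1 (highest adjusted p 0.0599).

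The imprinted region between Dlk1 and Dio3 makes long noncoding RNAs from the maternal copy. Rian, 1 of the 15 largest falls, read 9.30, 7.95 and 7.95 in young and 5.78, 6.42 and 6.04 in old muscle, at least 5.0-fold lower (adjusted p = 0.00521). That fold is from the brightest of 4 Rian probe sets. Over 22 settings of the fit the difference ran from -2.55 to -0.87, and it passed in each. Meg3 fell by 1.07 ± 0.24 on its brightest probe set (adjusted p = 0.0301) and by 1.31 on another, and the other 9 of its 11 probe sets differed by -1.09 to 0.03 and did not pass. The Meg3 call was lost without any of the 6 wild-type arrays (highest adjusted p 0.0918) and with the mean of its probe sets (-0.49, adjusted p = 0.0943). Mirg and Dlk1, under 6.0 on all 6 wild-type arrays, did not pass.

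Of 6 guanylate-binding protein genes Gbp6 rose and Gbp7 fell. The other 4 differed by -0.44 to -0.14 and did not pass.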
